A study of Homo sapiens with 12 samples.

Results

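The genes described here are the human genes that encode the intraflagellar transport (IFT) trains, their retrograde motor, the BBSome with its assembly factors and GTPases, and the transition zone of the primary cilium. The set was given by name and holds 39 genes: 6 of IFT-A, 12 of IFT-B, 7 of the BBSome, 3 BBS chaperonin-like genes, 2 ARL GTPases, 7 transition zone genes and 2 genes of the dynein-2 motor. A probe set that the platform annotation assigns to a single symbol was found for 38 of them. TTC21B, an IFT-A subunit, had only a probe set shared with another gene symbol and has no value here. The 38 genes are among 19775 genes with such a probe set, and all 38 were among the 14725 genes that passed the filter on low values. The 39 genes were chosen with earlier results of these data known.

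The data are 12 expression arrays of H929, a human multiple myeloma cell line, in 4 groups of 3 arrays. The first arm held cells infected with shBCL9, a short hairpin RNA named for BCL9, a Wnt co-activator, and cells infected with shGFP, its control. In both of these groups GFP-positive cells were isolated by flow cytometry, although the control hairpin is named for GFP itself. The second arm held cells that received hsa-miR-30a/b/c/d/e by transfection and cells that received the worm microRNA cel-miR-67, its control. The labels name no hairpin sequence and do not say whether the miR-30 members were given together. Both arms rest on a single cell line. The labels do not state whether a group's 3 arrays are independent cultures or repeats of a culture, so the p-values cover array-to-array spread that could be wholly technical.

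A primary cilium is a microtubule-based antenna that grows from the mother centriole. IFT-B trains, pulled by kinesin-2, carry tubulin and other cargo to the tip, and IFT-A with dynein-2 returns them, while the BBSome moves membrane proteins such as receptors out of the cilium and the transition zone gates its base. Lymphocytes and blood cells are usually described as lacking a primary cilium, although they express many of these genes, and some IFT proteins act at the T cell immune synapse. RFX transcription factors bind an X-box motif in the promoters of many ciliary genes.

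The transfected microRNAs share one seed, so the mature sequences of 3 of them are shown, in RefSeq's GRCh38.p14 annotation, with bases 2 to 8, the seed, in capitals.
hsa-miR-30a-5p: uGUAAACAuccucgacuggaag
hsa-miR-30c-5p: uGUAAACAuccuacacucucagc
hsa-miR-30e-5p: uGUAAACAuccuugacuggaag
The seed GUAAACA was the same in the 3 sequences.

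Promoters of 6 members that fell in shBCL9 cells are shown because they hold a match to GTTGCC, the left arm of an X-box, or its reverse complement GGCAAC, which is in capitals. Each is RefSeq's 300-base window from 250 bases before to 50 bases after the annotated start in GRCh38.p14, written 5′ to 3′ on the gene's strand. The windows are chr2:43773789-43774088 on the plus strand for DYNC2LI1, chr11:118565882-118566181 on the minus strand for IFT46, chr9:26956162-26956461 on the plus strand for IFT74, chr3:97764508-97764807 on the plus strand for ARL6, chr11:66510385-66510684 on the plus strand for BBS1 and chr13:20566907-20567206 on the plus strand for IFT88. The match began 8 bases before the start in DYNC2LI1, 196 before in IFT46, 28 before in IFT74, 24 before in ARL6, 1 after in BBS1 and 16 after in IFT88. In ARL6 the capitals run on through a full-length X-box spelling, GTTNCC followed by 3 free bases and GNAAC.
DYNC2LI1: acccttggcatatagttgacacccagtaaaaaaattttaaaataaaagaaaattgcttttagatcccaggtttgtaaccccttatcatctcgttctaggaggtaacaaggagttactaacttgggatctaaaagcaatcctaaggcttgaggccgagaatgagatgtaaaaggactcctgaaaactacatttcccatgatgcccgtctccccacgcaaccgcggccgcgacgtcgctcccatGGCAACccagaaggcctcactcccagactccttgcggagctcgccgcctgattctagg
IFT46: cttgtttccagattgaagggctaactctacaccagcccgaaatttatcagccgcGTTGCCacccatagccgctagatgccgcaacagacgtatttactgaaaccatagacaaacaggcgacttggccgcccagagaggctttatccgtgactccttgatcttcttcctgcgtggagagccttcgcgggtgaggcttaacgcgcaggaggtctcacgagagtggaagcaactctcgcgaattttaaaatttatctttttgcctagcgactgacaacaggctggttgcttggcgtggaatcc
IFT74: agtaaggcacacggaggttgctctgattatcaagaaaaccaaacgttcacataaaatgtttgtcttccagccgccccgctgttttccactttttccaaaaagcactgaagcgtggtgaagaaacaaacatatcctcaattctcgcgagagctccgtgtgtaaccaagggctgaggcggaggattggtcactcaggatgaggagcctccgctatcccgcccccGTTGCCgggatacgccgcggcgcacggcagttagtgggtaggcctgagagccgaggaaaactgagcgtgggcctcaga
ARL6: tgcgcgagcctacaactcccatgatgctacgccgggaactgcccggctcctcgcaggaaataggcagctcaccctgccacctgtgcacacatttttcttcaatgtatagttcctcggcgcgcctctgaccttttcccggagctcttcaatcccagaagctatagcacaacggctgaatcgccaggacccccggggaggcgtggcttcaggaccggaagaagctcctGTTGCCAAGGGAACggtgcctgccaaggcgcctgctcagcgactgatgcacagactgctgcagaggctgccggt
BBS1: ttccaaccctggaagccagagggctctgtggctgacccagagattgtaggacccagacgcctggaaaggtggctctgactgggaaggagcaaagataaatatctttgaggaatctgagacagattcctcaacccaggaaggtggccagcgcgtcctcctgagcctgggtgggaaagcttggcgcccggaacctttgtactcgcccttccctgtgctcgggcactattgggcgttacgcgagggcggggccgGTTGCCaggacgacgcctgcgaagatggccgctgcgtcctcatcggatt
IFT88: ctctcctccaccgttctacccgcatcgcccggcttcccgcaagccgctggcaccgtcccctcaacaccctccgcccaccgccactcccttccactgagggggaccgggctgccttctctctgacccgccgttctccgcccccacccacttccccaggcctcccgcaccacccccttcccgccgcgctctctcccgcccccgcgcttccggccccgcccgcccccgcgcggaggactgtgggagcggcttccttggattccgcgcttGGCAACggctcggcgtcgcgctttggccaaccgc
In all, 42 promoter windows were found for 35 of the members. GTTGCC, read on both strands, was in 18 of the 42 (42.9%), against 12.2% of all 35116 windows of that length and 12.7% of those of the tested genes. A match that began no more than 60 bases before the start, or after it, was in 13 of the 42, against 4.94% of all windows. The whole palindrome was in 2 of the 42, those of ARL6 and B9D2 (4.76%), against 0.834% of all windows. The looser GTTNCC, which contains every GTTGCC match, was in 78.6% of the members' windows, against 45.4% of all. GTTGCC was picked from 14 spellings after their counts were seen, and these shares are descriptions with no test. Among the measured genes with a window, 13 of the 24 that fell in shBCL9 cells and 3 of the 10 others held a match to the picked spelling. With the looser spelling the counts were 21 of the 24 and 8 of the 10. Other spellings among the 14 went either way, such as 10 of the 24 and 2 of the 10, or 5 of the 24 and 3 of the 10. The split thus depended on the spelling, and whether a match goes with the fall was not tested.

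The levels are log2 values, so a difference of 1 is a 2-fold change. Their filter level, the 40th percentile of each array, lay at 4.86 to 4.95. Of the 38 genes, 36 were above it on all 12 arrays, BBS12 on 10 and BBS5 on 4. The 12 plasma cell markers were all above the level on every array. So were 5 of 7 B cell, 5 of 9 T and NK cell, 2 of 5 myeloid and 5 of 10 stromal and epithelial markers. Markers of other cell types were thus not all below the level, but the bar is low. Of all 19775 genes, 14725 were above the level on at least 3 arrays. MS4A1 of B cells, CD3G, CD8A and CD2 of T cells, CD14, LYZ and MPO of myeloid cells and EPCAM, KRT19 and COL3A1 of epithelial and stromal cells were above it on no array. The summed plasma cell marker signal was 72600 to 75800 in shBCL9 and 73100 to 78000 in shGFP cells, and 53700 to 57300 in miR-30 and 56100 to 57500 in cel-miR-67 cells, on the linear scale. The sum of the stromal and epithelial list was 13700 to 14100 in shBCL9 and 14000 to 14200 in shGFP cells, and 12600 to 13400 in miR-30 and 12000 to 12500 in cel-miR-67 cells. The B cell sum was 487 to 530 in shBCL9 and 552 to 626 in shGFP cells, and 525 to 531 in miR-30 and 463 to 485 in cel-miR-67 cells. The T and NK cell sum was 323 to 351 in shBCL9 and 337 to 355 in shGFP cells, and 301 to 329 in miR-30 and 295 to 312 in cel-miR-67 cells. The myeloid sum was 163 to 171 in shBCL9 and 146 to 171 in shGFP cells, and 147 to 169 in miR-30 and 140 to 158 in cel-miR-67 cells. Of 22 genes of the motile cilium axoneme, 13 were above the level on all 12 arrays and 8 on none.

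BCL9, the gene named by the hairpin, was at 7.73, 7.61 and 7.85 in shBCL9 cells, against 7.88, 7.90 and 7.88 in shGFP cells. The shBCL9 arrays lay below the shGFP arrays by a small margin, with a log2 difference of -0.15 (SE 0.07, limma adjusted p = 0.0874) that did not pass the test, so the hairpin's effect on its target was not established on these arrays. In miR-30 cells BCL9 was at 7.99, 8.05 and 7.83, against 7.82, 7.86 and 7.79 in cel-miR-67 cells, a log2 difference of 0.14 (SE 0.07, limma adjusted p = 0.269). The labels give no position of the hairpin's target relative to the BCL9 probe set.

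The hairpin arm asks what changed in cells that received the hairpin named for BCL9. Of the 38 measured cilium genes, 28 fell and 2 rose in shBCL9 cells (limma, Benjamini-Hochberg adjusted p under 0.05, fitted over all genes). Over all 14725 genes, 41.5% were called in this comparison, 22.9% lower and 18.7% higher, against 73.7% lower and 5.26% higher among the cilium genes. The members were chosen with earlier results of these data known, so these shares are descriptions with no test. The median log2 difference of the 38 was -0.31, with a range of -1.15 to 0.44 and 31 values below 0, while the median of all genes tested was 0.027. Most changes were modest: the median over the 28 genes that fell was -0.40, 9 of the called genes changed at least 1.5-fold, and BBS2 was the only member past 2-fold. In 27 genes all 3 shBCL9 arrays were below all 3 shGFP arrays, and in 3 all were above, against 27.2% and 24.8% of all genes (52% either way). In bulk RNA, fewer cells that express a gene and less of its RNA per cell cannot be told apart.

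Some RNA measures differed between these groups and another did not. The GAPDH probe sets' 3′ minus 5′ difference was 0.13 ± 0.02 in shBCL9 cells, against 0.14 ± 0.02 in shGFP cells (log2, SD, n = 3 each). The ACTB probe sets' 3′ minus 5′ difference was 1.67 ± 0.08 in shBCL9 cells, against 1.30 ± 0.11 in shGFP cells (log2, SD, n = 3 each), and the 18S rRNA signal was 13.23 ± 0.02, against 12.38 ± 0.07. With the ACTB difference as a covariate, 13 of the 30 calls were kept and all 30 genes had the same sign, at a median of -0.47 with a median SE of 0.16, against -0.38 and 0.08 without it. With the 18S signal, which separated the 2 groups, no member was called by limma (5 had an unadjusted p under 0.05) and 24 of the 30 had the same sign, at a median SE of 0.54. The 13 that kept their call with the ACTB covariate were WDR19, IFT20, IFT74, IFT80, TRAF3IP1, BBS1, BBS2, BBS4, BBS12, ARL6, CEP290, DYNC2H1 and DYNC2LI1. Over all 14725 genes tested, 6118 were called without a covariate, 2967 with ACTB and 11 with 18S. The part of RNA quality in the result was not tested.

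**Figure D1:**
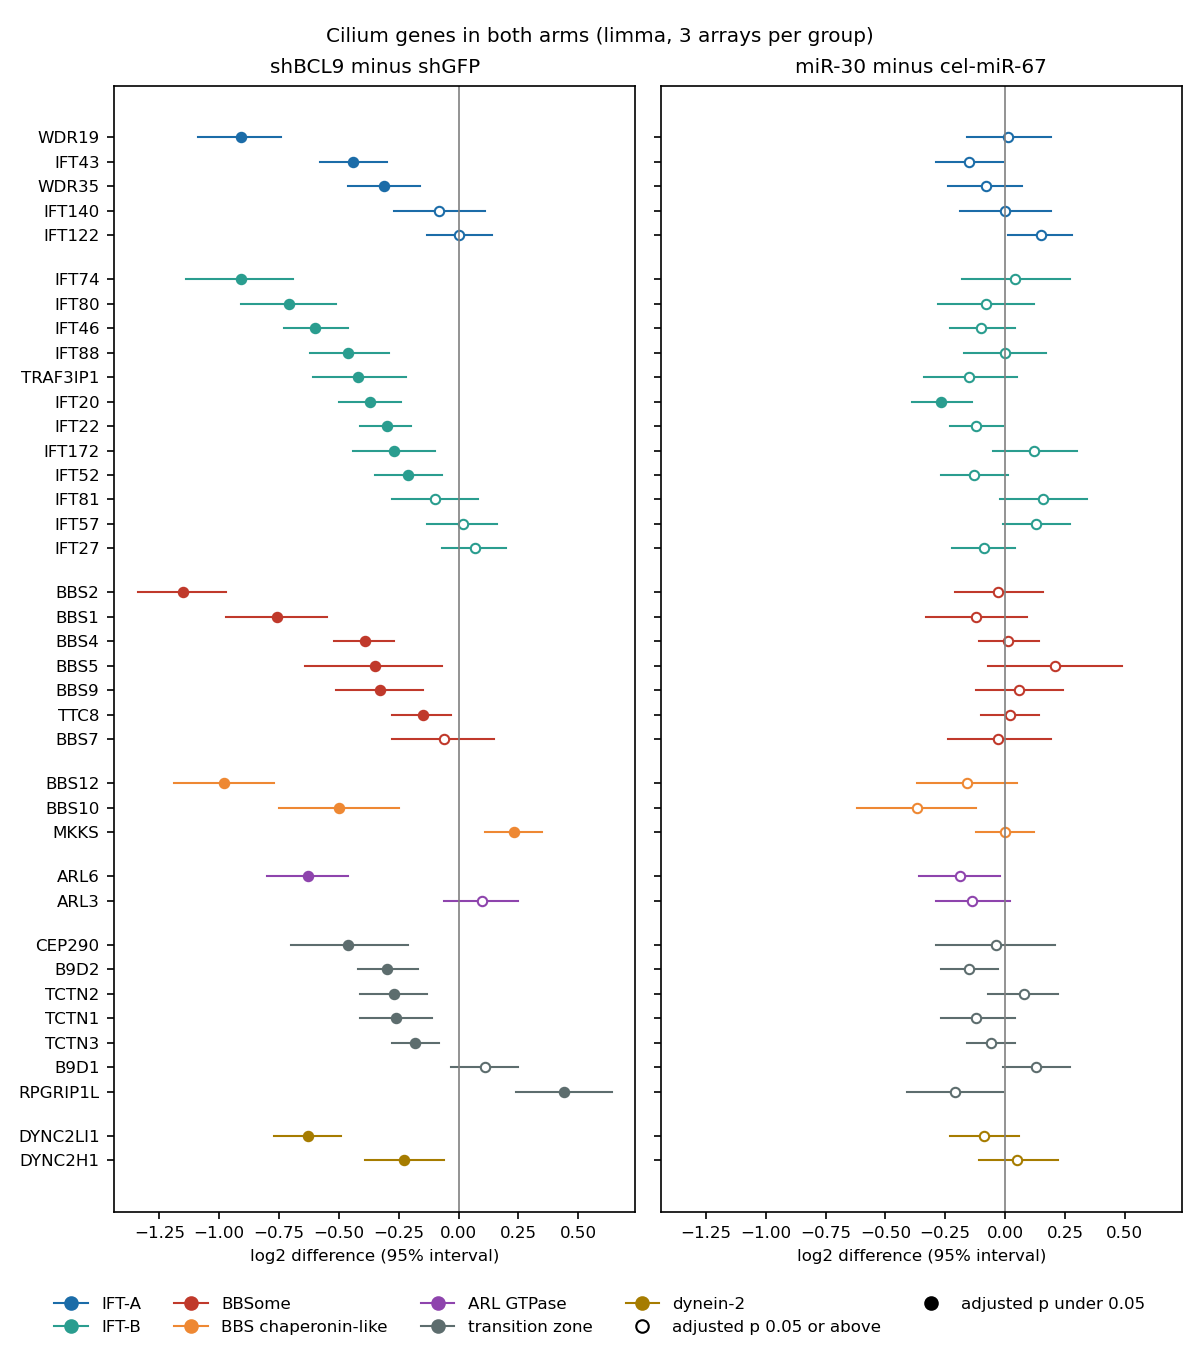
Log2 differences (points) with 95% intervals (bars) of the 38 measured cilium genes, shBCL9 minus shGFP on the left and miR-30 minus cel-miR-67 on the right, from limma with 3 arrays per group. Filled points passed an adjusted p of 0.05: 30 on the left, 28 of them below 0, and 1 on the right.

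IFT-A, the train complex for retrograde transport, had 3 of 5 measured subunits lower in shBCL9 cells and none higher, with a median log2 difference of -0.31. WDR19 (IFT144) fell the most of the 5. It was at 7.86, 7.92 and 7.58 in shBCL9 cells, against 8.66, 8.74 and 8.70 in shGFP cells, and at 8.61, 8.48 and 8.41 in miR-30 cells, against 8.51, 8.49 and 8.46 in cel-miR-67 cells. The 3 shBCL9 arrays stood below the other 9, and the groups of the hairpin arm did not overlap. The log2 difference was -0.91 (SE 0.08, limma adjusted p = 2.12e-06).

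IFT43, a small IFT-A subunit, was at 7.48, 7.58 and 7.45 in shBCL9 cells, against 7.91, 7.95 and 7.98 in shGFP cells. It was at 8.51, 8.45 and 8.59 in miR-30 cells, against 8.56, 8.66 and 8.78 in cel-miR-67 cells. The hairpin arm's groups did not overlap, and both lay below the second arm. IFT43 differed by -0.44 in shBCL9 cells (SE 0.06, limma adjusted p = 0.000136). WDR35 (IFT121), a scaffold subunit, was lower by a log2 difference of -0.31 (limma adjusted p = 0.00372). IFT122 (0.00, 95% interval -0.13 to 0.14) and IFT140 (-0.08, -0.27 to 0.11), the other large subunits, did not pass the test.

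IFT-B, the complex of anterograde trains, had 9 of 12 subunits lower in shBCL9 cells and none higher, with a median of -0.34. IFT74, which with IFT81 forms a tubulin-binding pair, fell the most. It was at 6.29, 6.66 and 6.58 in shBCL9 cells, against 7.19, 7.51 and 7.57 in shGFP cells, and at 7.16, 7.30 and 7.22 in miR-30 cells, against 7.22, 7.17 and 7.17 in cel-miR-67 cells. The shBCL9 arrays were the lowest of the 12, and both groups of the arm spread more than the second arm's. The log2 difference was -0.91 (SE 0.10, limma adjusted p = 1.78e-05), while its partner IFT81 differed by -0.10 (-0.28 to 0.08) and did not pass.

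IFT80, a peripheral IFT-B subunit, was at 8.12, 8.39 and 8.28 in shBCL9 cells, against 8.84, 8.97 and 9.10 in shGFP cells. In the second arm it was at 9.06, 9.26 and 9.25 with miR-30, against 9.29, 9.39 and 9.14 with cel-miR-67. The groups were apart in the hairpin arm and overlapped in the other. The shBCL9 difference was -0.71 (SE 0.09, limma adjusted p = 5.85e-05).

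IFT46, a core IFT-B subunit, was at 7.84, 7.84 and 7.87 in shBCL9 cells, against 8.47, 8.47 and 8.41 in shGFP cells. In the second arm IFT46 was at 8.67, 8.61 and 8.69 with miR-30, against 8.66, 8.69 and 8.91 with cel-miR-67. Each hairpin group was tight and the gap between them wide beside that spread. IFT46 differed by -0.60 in shBCL9 cells (SE 0.06, limma adjusted p = 9.22e-06).

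IFT88, the core subunit whose loss in mice blocks cilium assembly, was at 6.80, 6.66 and 6.52 in shBCL9 cells, against 7.18, 7.04 and 7.13 in shGFP cells. It was at 7.17, 7.00 and 6.92 with miR-30, against 7.02, 7.05 and 7.02 with cel-miR-67. The shBCL9 arrays were again the 3 lowest, by -0.46 against shGFP (SE 0.08, limma adjusted p = 0.000498).

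IFT20, a subunit that also resides at the Golgi, was at 9.21, 9.24 and 9.15 in shBCL9 cells, against 9.52, 9.56 and 9.62 in shGFP cells. The hairpin arm's groups did not overlap, and the difference was -0.37 (SE 0.06, limma adjusted p = 0.000325). IFT22, a small GTPase-like subunit, was at 8.43, 8.43 and 8.45 in shBCL9 cells, against 8.68, 8.76 and 8.78 in shGFP cells. It was at 8.66, 8.70 and 8.73 with miR-30, against 8.77, 8.81 and 8.88 with cel-miR-67. The groups of IFT22 did not overlap in either arm, with a difference of -0.30 in shBCL9 cells (SE 0.05, limma adjusted p = 0.000315).

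Of the other IFT-B genes, TRAF3IP1 (IFT54) differed by -0.42 (limma adjusted p = 0.00246), the large peripheral subunit IFT172 by -0.27 (limma adjusted p = 0.0149) and the core subunit IFT52 by -0.21 (limma adjusted p = 0.0188). IFT172 and IFT52 were weak calls: IFT172 lost its call without array 2 of either hairpin group, and IFT52 without shGFP array 2 or shBCL9 array 3. IFT27, a small GTPase (0.07, -0.07 to 0.20), and IFT57 (0.02, -0.13 to 0.16) did not pass the test.

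In the BBSome, the coat that ferries membrane proteins out of cilia, 6 of 7 subunits fell in shBCL9 cells and none rose, with a median of -0.35. BBS2, a subunit that pairs with BBS7, had the largest change of all members. It was at 6.24, 6.10 and 5.99 in shBCL9 cells, against 7.10, 7.31 and 7.37 in shGFP cells, and at 8.02, 8.01 and 7.96 in miR-30 cells, against 7.90, 8.15 and 8.02 in cel-miR-67 cells. The levels fell into 3 steps, with shBCL9 lowest, shGFP between, and both transfected groups highest and overlapping. BBS2 was 2.22-fold lower in shBCL9 cells (log2 difference -1.15, SE 0.09, limma adjusted p = 4.6e-07). BBS7 differed by -0.06 (-0.28 to 0.15), although its other probe set was lower by -0.52 without overlap, and with the probe sets of each gene averaged BBS7 was called.

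BBS1, the subunit that binds the GTPase ARL6, was at 5.85, 6.27 and 6.08 in shBCL9 cells, against 6.71, 6.89 and 6.88 in shGFP cells. It was at 7.45, 7.40 and 7.26 with miR-30, against 7.57, 7.42 and 7.47 with cel-miR-67. The hairpin groups were apart, with a difference of -0.76 (SE 0.09, limma adjusted p = 4.04e-05). A further BBS1 probe set was higher in shBCL9 cells without overlap, by 0.18, and with the probe sets averaged BBS1 was not called.

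BBS4, a subunit that binds the centriolar satellite protein PCM1, was at 7.28, 7.39 and 7.25 in shBCL9 cells, against 7.61, 7.76 and 7.72 in shGFP cells. It was at 8.53, 8.41 and 8.54 with miR-30, against 8.48, 8.49 and 8.48 with cel-miR-67. BBS4 showed the same 3 steps as BBS2, with a shBCL9 difference of -0.39 (SE 0.06, limma adjusted p = 0.000165). BBS9, a scaffold of the complex, differed by -0.33 (limma adjusted p = 0.00647) and TTC8 (BBS8) by -0.15 (limma adjusted p = 0.0459). BBS5, which binds phosphoinositides, differed by -0.35 (limma adjusted p = 0.0437), but its groups overlapped and it was near the filter level. It was above that level on all 3 shGFP arrays and on shBCL9 array 2 only, so it passed the filter through shGFP. The BBS5 call is in the counts of members that fell but gives no support for a fall. The TTC8 call was lost in 16 of 25 alternatives and the BBS5 call in 14 of 24, among them fits without a single array of either hairpin group.

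The 3 chaperonin-like genes, which help assemble the BBSome, did not move together. BBS12 was at 4.88, 5.14 and 4.78 in shBCL9 cells, against 5.84, 6.04 and 5.86 in shGFP cells, and at 7.13, 6.91 and 6.94 in miR-30 cells, against 7.06, 7.27 and 7.14 in cel-miR-67 cells. BBS12 showed the same steps between groups, and its shBCL9 levels reached down to the filter level. Its log2 difference was -0.98 (SE 0.10, limma adjusted p = 5.1e-06). BBS10 was at 6.34, 6.60 and 6.77 in shBCL9 cells, against 6.82, 7.10 and 7.29 in shGFP cells, a difference of -0.50 (SE 0.12, limma adjusted p = 0.00429), with groups that did not overlap. MKKS was at 8.80, 8.91 and 8.89 in shBCL9 cells, against 8.55, 8.66 and 8.70 in shGFP cells, and rose by 0.23 (SE 0.05, limma adjusted p = 0.00465), a call that was lost with the ACTB covariate.

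ARL6 (BBS3), the GTPase that recruits the BBSome to membranes, was at 5.42, 5.53 and 5.39 in shBCL9 cells, against 5.89, 6.11 and 6.22 in shGFP cells. It was at 5.55, 5.68 and 5.67 with miR-30, against 5.83, 5.84 and 5.80 with cel-miR-67. The groups did not overlap in either arm, and the shBCL9 difference was -0.63 (SE 0.08, limma adjusted p = 3.17e-05). ARL3, which releases lipid-modified cargo inside the cilium, differed by 0.10 (-0.06 to 0.25) and did not pass.

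At the transition zone 5 of 7 genes fell and 1 rose in shBCL9 cells, with a median of -0.26. CEP290, which links the ciliary membrane to the axoneme, differed by -0.46 (limma adjusted p = 0.00652), B9D2 by -0.30 (limma adjusted p = 0.00104) and the tectonics TCTN2, TCTN1 and TCTN3 by -0.27, -0.26 and -0.18 (limma adjusted p = 0.00545, 0.0106 and 0.00967). B9D2 and the tectonics belong to the MKS complex of the ciliary gate. B9D1, its partner in that complex, differed by 0.11 (-0.03 to 0.25) and did not pass, although its groups did not overlap. RPGRIP1L, a scaffold of the gate, rose. It was at 6.45, 6.58 and 6.43 in shBCL9 cells, against 5.92, 6.05 and 6.16 in shGFP cells, a log2 difference of 0.44 (SE 0.09, limma adjusted p = 0.00197), and with the ACTB covariate 0.13 and no longer called.

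Both genes of the retrograde motor fell. DYNC2LI1, the light intermediate chain, was at 7.06, 7.06 and 7.08 in shBCL9 cells, against 7.60, 7.70 and 7.79 in shGFP cells, and at 8.21, 8.29 and 8.31 in miR-30 cells, against 8.23, 8.44 and 8.40 in cel-miR-67 cells. The shBCL9 arrays were nearly identical and the lowest of the 12, with a difference of -0.63 (SE 0.07, limma adjusted p = 8.9e-06). DYNC2H1, the heavy chain, differed by -0.23 (limma adjusted p = 0.0304), a call lost without shGFP array 2 or 3 or shBCL9 array 3.

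**Figure D2:**
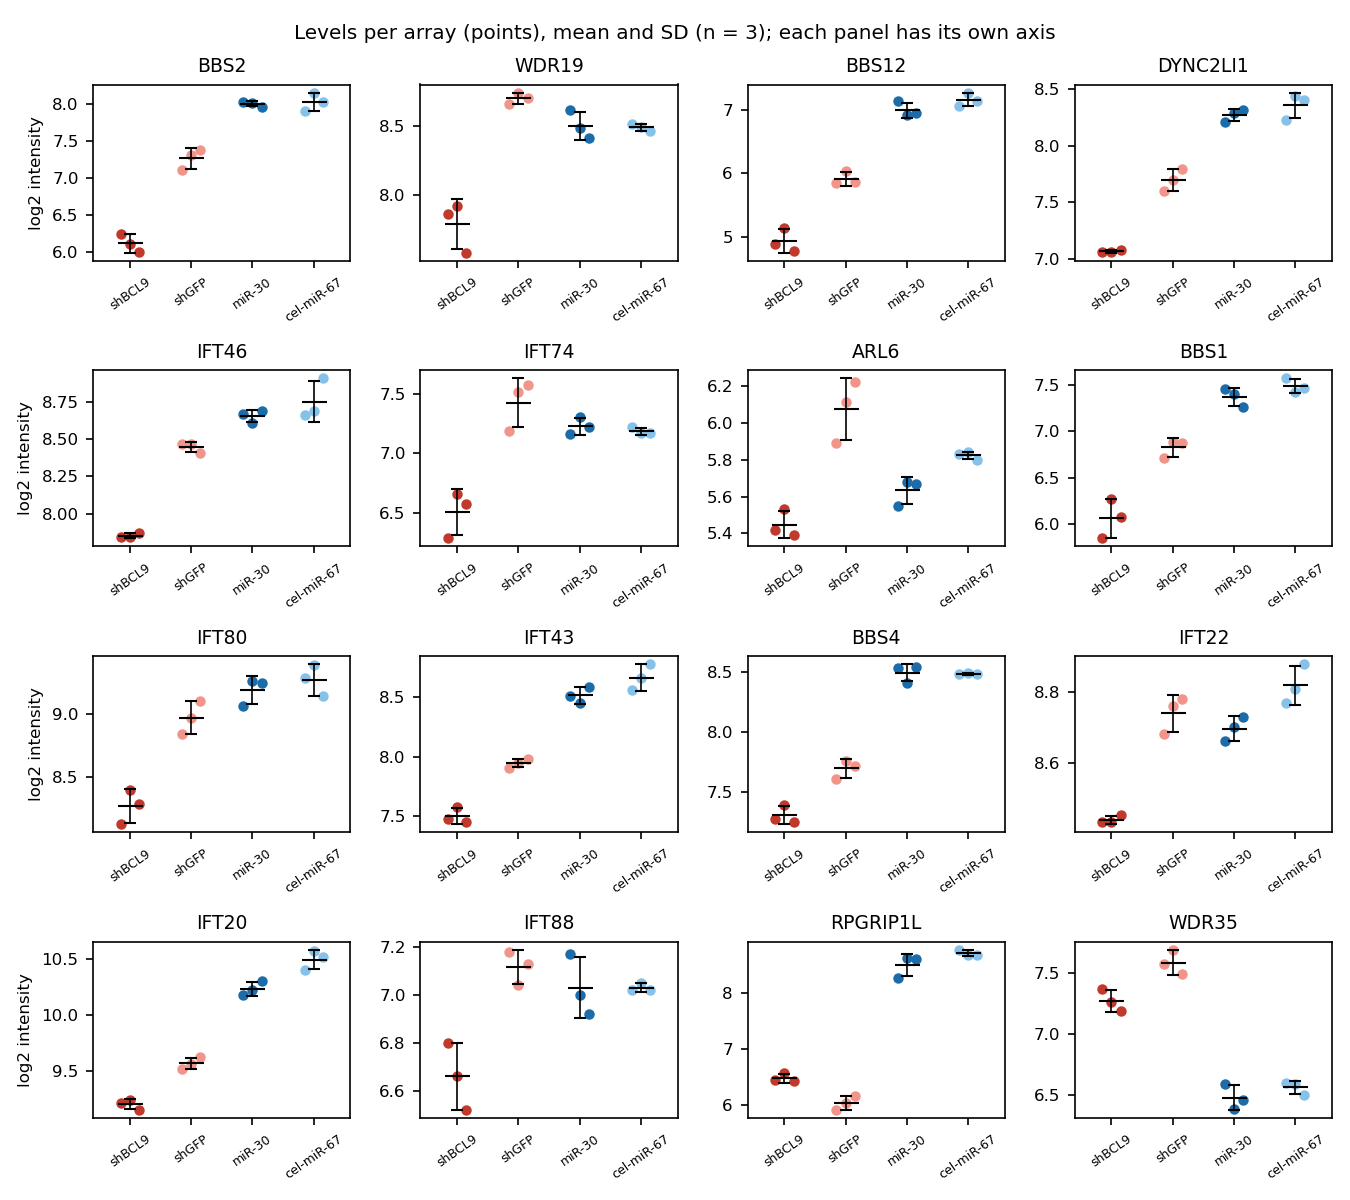
Log2 intensity on each array (points) with the mean and SD (bars, n = 3) in shBCL9, shGFP, miR-30 and cel-miR-67 cells for 16 members, each panel on its own axis. BBS2, BBS4 and BBS12 show shBCL9 lowest, shGFP between and both transfected groups highest, while RPGRIP1L is higher in shBCL9 than in shGFP and far below the transfected groups.

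Other probe sets of the same genes gave a check that shares the arrays. The 38 genes had 84 probe sets, and 26 of the 46 not used were above the filter level on at least 3 arrays. Genes that fell had 16 of these, of which 12 had the same sign and 9 were lower without overlap. The second probe set of IFT80 differed by -0.80 and that of ARL6 by -0.87. A probe set of the opposite sign was found for 4 genes that fell: BBS1 (0.18), TCTN1 (0.14), IFT43 (0.13) and DYNC2LI1 (0.12). IFT43 and DYNC2LI1 each had a further probe set of the same sign, at -0.45 and -0.61. With the probe sets of each gene averaged, BBS1, DYNC2H1, IFT22, TCTN1 and TCTN2 lost their calls and kept their sign.

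**Figure D3:**
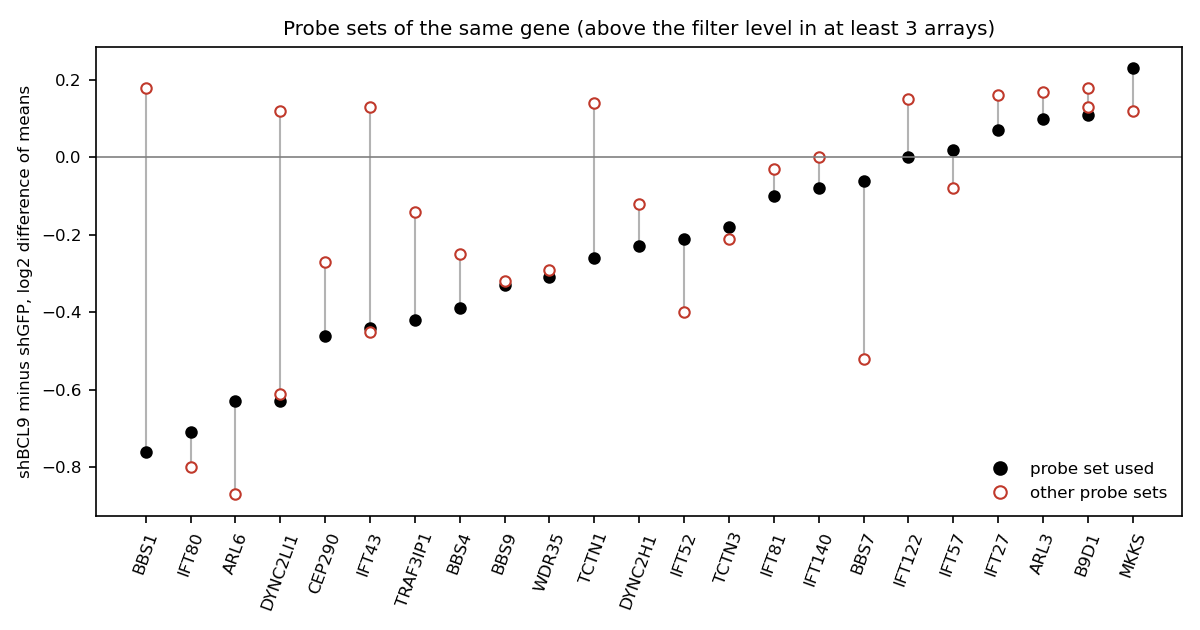
Differences of group means (log2, shBCL9 minus shGFP) for every probe set above the filter level on at least 3 arrays, for the genes with more than 1 such probe set. Filled points are the probe sets used and open points the others, and for IFT80 and ARL6 both lie well below 0, while BBS1 has points on both sides of 0.

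The second arm asks what the miR-30 family changed. Of the 38 genes, 1 fell and none rose in miR-30 cells, where 4.98% of all genes were called, 2.63% lower and 2.34% higher, so the members' share of 2.63% lower equalled that of all genes. At an unadjusted p under 0.05 limma gave 8 members, and the share of all genes at that threshold is not given, so this count is not read further. The median log2 difference was -0.05, against -0.017 over all genes, with a range of -0.37 to 0.21. The 95% intervals of the 38 genes lay within -0.62 and 0.49. The 3 miR-30 arrays were below the 3 cel-miR-67 arrays in 8 members and above them in 1, against 16.1% and 10% of all genes (26.1% either way). The ACTB 3′ minus 5′ difference was 2.07 ± 0.01 in miR-30 cells, against 2.16 ± 0.09 in cel-miR-67 cells, and the 18S signal 12.64 ± 0.04, against 12.50 ± 0.05 (log2, SD, n = 3 each).

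IFT20 was the member that fell. It was at 10.18, 10.22 and 10.30 in miR-30 cells, against 10.40, 10.57 and 10.52 in cel-miR-67 cells, without overlap. The log2 difference was -0.27 (SE 0.06, limma adjusted p = 0.0242). The call was lost in 8 of 24 alternatives, with adjusted p from 0.00209 to 0.277, among them the fits without cel-miR-67 array 2 or 3 and without miR-30 array 1 or 2. BBS10 had the largest difference, at 7.60, 7.66 and 7.59 in miR-30 cells, against 7.94, 8.07 and 7.96 in cel-miR-67 cells. Its groups did not overlap, and the difference of -0.37 (95% interval -0.62 to -0.12, limma adjusted p = 0.0858) did not pass, but did in 5 of 25 alternatives. BBS2 (-0.03, -0.21 to 0.16) and WDR19 (0.01, -0.16 to 0.19), among the members that fell most in shBCL9 cells, did not pass in this arm.

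The difference between the arms was tested as the miR-30 effect minus the shBCL9 effect, which shares its arrays with both comparisons above. It was called for 18 of the 38 members, 16 higher and 2 lower, against 26.3% of all genes called, 14.6% higher and 11.7% lower. Of the 28 members that fell in shBCL9 cells, 16 had a called difference between the arms. Picking members by their fall favours such a difference. The share among all genes that fell is not given, so this count is a description only. The widest gaps were in BBS2 (1.13, SE 0.12, limma adjusted p = 2.78e-05), IFT74 (0.95, SE 0.15, limma adjusted p = 0.000441) and WDR19 (0.92, SE 0.11, limma adjusted p = 8.05e-05). IFT20, lower in both arms, differed between them by 0.10 (95% interval -0.08 to 0.28) and BBS10 by 0.12 (-0.23 to 0.48), neither of which passed.

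The 2 control groups, shGFP and cel-miR-67, also differed. Infection, sorting and transfection differ between these groups together and cannot be told apart. Of the 38 members, 10 were higher and 18 lower in shGFP cells, where 61.4% of all genes were called, 28.4% higher and 33% lower. The median was -0.16, against 0.024 over all genes. The control groups did not overlap in 29 members, 10 higher and 19 lower, against 66.1% of all genes. The ACTB 3′ minus 5′ difference was 1.30 ± 0.11 in shGFP cells, against 2.16 ± 0.09 in cel-miR-67 cells (SD, n = 3 each), and with it as a covariate 3 of the 28 calls were kept. Over all genes, 9044 calls became 1658 with that covariate, so the loss was not particular to the members.

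RPGRIP1L had by far the widest gap among the members. It was at 5.92, 6.05 and 6.16 in shGFP cells, against 8.77, 8.68 and 8.68 in cel-miR-67 cells. In miR-30 cells it was at 8.27, 8.63 and 8.60, close below the cel-miR-67 arrays. All 6 infected arrays lay below all 6 transfected ones. RPGRIP1L was 6.34-fold lower in shGFP cells (log2 difference -2.67, SE 0.09, limma adjusted p = 6.92e-11), by -1.97 with the ACTB covariate and still called. Its other probe set was below the filter level on every array, so this gap rests on a single probe set.

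BBS12 was lower in shGFP cells by -1.24 (SE 0.10, limma adjusted p = 1.11e-07), or 2.37-fold, and IFT20 by -0.93 (SE 0.06, limma adjusted p = 1.72e-08). Both were lower still in shBCL9 cells, by the called differences given above. WDR35 was at 7.37, 7.26 and 7.19 in shBCL9 cells, against 7.57, 7.69 and 7.49 in shGFP cells, and at 6.59, 6.39 and 6.46 in miR-30 cells, against 6.60, 6.59 and 6.50 in cel-miR-67 cells. All 6 infected arrays lay above all 6 transfected ones, and WDR35 was 2.03-fold higher in shGFP than in cel-miR-67 cells (log2 difference 1.02, SE 0.07, limma adjusted p = 3.86e-08). With the ACTB covariate WDR35 stayed called at 1.34, whereas BBS12 (-0.54) and IFT20 (-0.71) did not pass.

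The shBCL9 and the control comparisons share the shGFP arrays, which would by itself tie their signs, so their values are given side by side only. Of the 28 members lower in shBCL9 cells, 12 were lower and 7 higher in shGFP than in cel-miR-67 cells. The shares among all genes lower in shBCL9 cells are not given. BBS4 was -0.39 in the hairpin comparison and -0.79 between the controls, WDR19 -0.91 and 0.21, and ARL6 -0.63 and 0.25. For MKKS, the 2 probe sets disagreed between the controls, at -0.44 and 1.04, so its direction there depends on the probe set.

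Lists of other cilium genes, drawn up from textbook roles rather than from their values but with earlier results of these data known, gave the surroundings. Of 74 tested genes in 4 lists, 28 fell and 1 rose in shBCL9 cells, with a median of -0.12. The share called in either direction, 39.2%, was not above the 41.5% of all genes. By direction, 37.8% of the 74 were lower and 1.35% higher, against 22.9% and 18.7% of all genes. The counts of each list below are to be read against those shares of all genes. Among other IFT, motor and BBSome genes 10 of 22 fell and none rose. CLUAP1 (IFT38), an IFT-B subunit, differed by -0.60 (limma adjusted p = 1.01e-06), and KIFAP3, the kinesin-2 adaptor, also by -0.60 (limma adjusted p = 1.45e-06). Further CLUAP1 probe sets differed by -0.24 and -0.13. DYNLT3, a dynein light chain, differed by -0.56 (limma adjusted p = 5.38e-05) and LZTFL1, which regulates BBSome entry into cilia, by -0.43 (limma adjusted p = 0.000101).

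Among other transition zone genes 5 of 19 fell (26.3%, near the 22.9% of all genes) and none rose. The smallest p-values were those of TMEM231 at -0.43 (limma adjusted p = 8.48e-05) and TMEM17 at -0.52 (limma adjusted p = 0.000219), both membrane proteins of the MKS complex. Among basal body genes 9 of 24 fell and 1 rose. They included EHD3 at -0.45, a membrane-shaping ATPase of early ciliogenesis, CCP110 at -0.32, the centriolar cap protein that restrains ciliogenesis, OFD1 at -0.37 and CEP19 at -0.66 (limma adjusted p from 2.64e-05 to 0.000402). CCP110 acts against cilium assembly in cultured cells, whereas EHD3 and CEP19 promote it. In the ARL cycle 4 of 9 genes fell, UNC119B, ARL2BP, ARL2 and PDE6D, by -0.28, -0.20, -0.28 and -0.23.

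Of 14 Hedgehog pathway genes, which signal through the primary cilium, 5 fell and 3 rose in shBCL9 cells. KIF7, a kinesin of the cilium tip, differed by -0.36 (limma adjusted p = 0.000283), STK36 by -0.38 (limma adjusted p = 0.000346) and the pathway's transcription factor GLI2 by 0.27 (limma adjusted p = 0.00645). Among 11 RFX and multiciliation regulators 5 fell and 1 rose. RFX5, RFXAP and RFX7 differed by -0.48, -0.74 and -0.65. RFX5 and RFXAP are subunits of the complex that drives MHC class II genes. A further RFXAP probe set differed by -0.01. RFX3, a regulator of ciliary genes named here after its values were seen, differed by -0.66 (limma adjusted p = 0.00332), with a further probe set at -0.62. The fit does not connect these genes to the members.

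In miR-30 cells the 4 lists held 6 genes that fell and 1 that rose of 74 (9.46% called), against 4.98% of all genes called, 2.63% lower and 2.34% higher. DYNLL1 and DYNLT2B, dynein light chains, differed by -0.28 and -0.38 (limma adjusted p = 0.0144 and 0.0163), and BBIP1, a BBSome subunit outside the 39 genes, by -0.24 (limma adjusted p = 0.0341). Further BBIP1 probe sets differed by -0.18, -0.05, -0.07 and -0.02. Of the 10 genes of cilium disassembly 7 rose, against 2.34% of all genes, and none fell, with a median of 0.37. KIF2C, TTK, AURKA and NEK2 differed by 0.43, 0.48, 0.46 and 0.48 (limma adjusted p from 0.000189 to 0.00133). These kinases and the microtubule depolymerase KIF2C also act in mitosis, and the list does not separate the 2 roles. In shBCL9 cells 2 of the 10 rose and 1 fell.

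**Figure D4:**
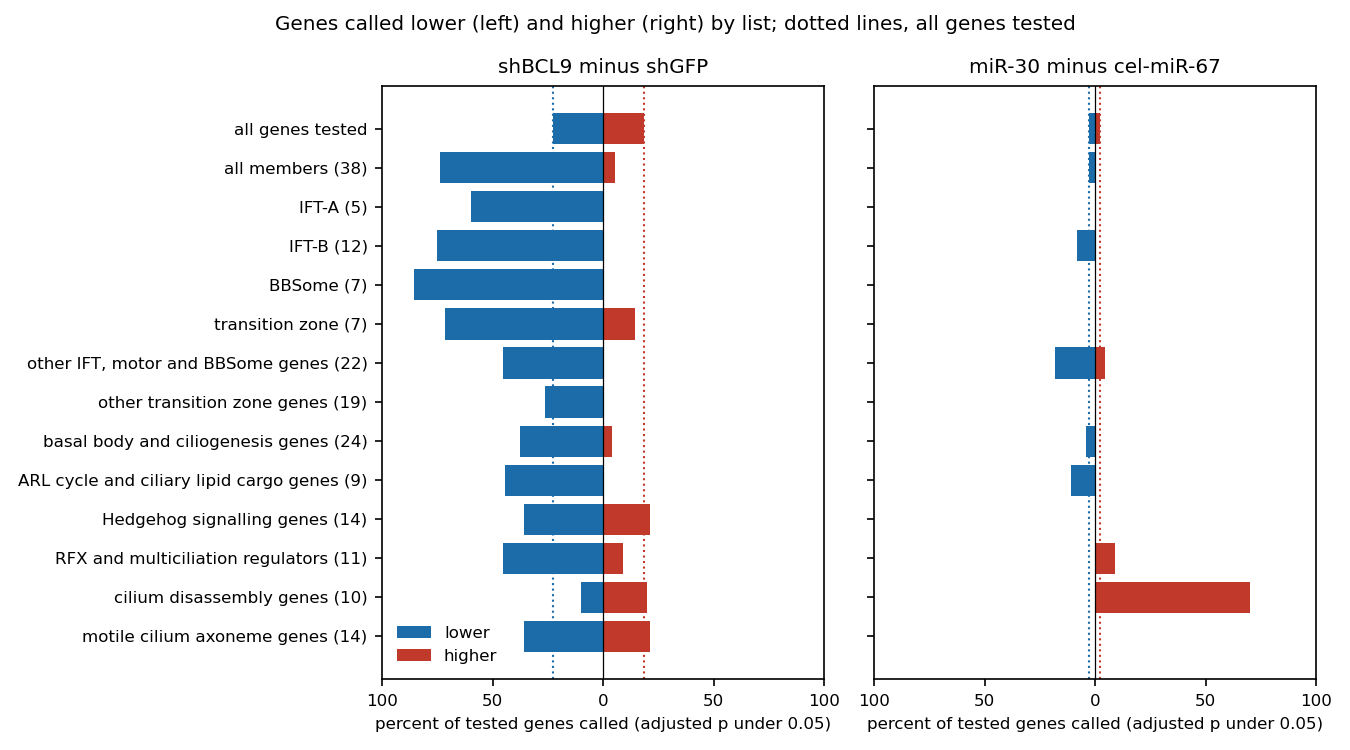
Percent of tested genes called lower (left of 0) and higher (right of 0) at an adjusted p under 0.05, by list, for shBCL9 minus shGFP and miR-30 minus cel-miR-67, with the number tested in brackets and all genes as dotted lines. In shBCL9 cells 73.7% of the cilium genes were lower, against 22.9% of all genes, and in miR-30 cells 2.63%, against 2.63%. The lists were chosen with earlier results of these data known.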

How the data were processed

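The study deposited 1 value table of Affymetrix arrays. Per the submitters' processing notes the values are log2 RMA intensities, made with the affy package, with no versions given, and the values in the deposited table fit that scale, so they were used without further normalization. Array medians lay between 5.46 and 5.53. Of 54675 probe sets, 41097 carry 1 gene symbol in GEO's platform annotation, 1801 several and 11777 none. Each of 19775 genes was represented by its brightest probe set (mean of all 12 arrays). Genes above the 40th percentile of an array in at least 3 arrays were tested (14725).

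Groups came from the sample titles and treatment labels. A group-means model was fitted to all 12 arrays with limma 3.58.1 in R 4.3.3 (lmFit, eBayes), and p-values were adjusted by Benjamini-Hochberg over all tested genes, with an adjusted p under 0.05 as a call. The script was tested on simulated data. The number of arrays limits the precision, and the intensities have no read depth. Apart from the filter, the choice of the brightest, the averaged probe sets and the marker sums, levels of different probe sets were not compared.

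The 39 members and the other gene lists were chosen with earlier results of these data known. Every member may be named; values on every array are given for at most 14 called members per treatment comparison by adjusted p and for the 4 with the largest called difference between controls, and BBS10 and MKKS were added after their values were seen. Of each list up to 4 called genes are named by adjusted p. Promoters are those of called members with an X-box match, at most 6. Alternatives changed the filter, the probe sets, the normalization, the fit, RNA quality covariates and the arrays used.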

Additional observations from a re-analysis of the deposited data

Results flagged for a closer look

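The effect of miR-30 (against cel-miR-67) and that of shBCL9 (against shGFP) differed, by limma's test of the difference itself, for 18 members. The difference is the miR-30 arm's effect minus the shBCL9 arm's, in log2 units. For IFT-A it was 0.92 for WDR19 and 0.29 for IFT43 (limma adjusted p = 8.05e-05 and 0.0325). For IFT-B it was 0.95 for IFT74, 0.62 for IFT80, 0.50 for IFT46, 0.45 for IFT88 and 0.40 for IFT172 (limma adjusted p from 0.000441 to 0.0197). For the BBSome it was 1.13 for BBS2, 0.64 for BBS1, 0.57 for BBS5, 0.40 for BBS4 and 0.39 for BBS9 (limma adjusted p from 2.78e-05 to 0.0376). It was 0.82 for BBS12, 0.54 for DYNC2LI1, 0.44 for ARL6 and 0.35 for TCTN2, and below 0 for RPGRIP1L at -0.65 and MKKS at -0.23. Several of these calls were weak: MKKS lost its call in 16 of 24 alternatives, IFT43 in 15 of 24, BBS5 in 12 of 23, BBS9 in 8 of 23 and IFT172 in 5 of 23. BBS5 also passed the filter only through shGFP, the group where it was highest. Each arm has its own controls, delivery and RNA measures, and these cannot be told apart from the treatments.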

How the results depend on the processing

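All alternatives were planned. Of the 28 members lower in shBCL9 cells, every one kept its sign wherever it was tested among the 25 alternatives except IFT52, TCTN1, TCTN2 and TCTN3 with the 18S covariate (0.02, 0.28, 0.45 and 0.28), where MKKS (-0.01) and RPGRIP1L (-0.09) turned too. The 18S signal separates the hairpin groups, which widens the errors. The 30 calls became 18 (of 27 tested) with plain probe sets only, 13 with the ACTB covariate and 0 with 18S (limma, 5 at an unadjusted p under 0.05), and 26 to 30 without 1 array. Over all genes, 6118 calls became 4643 with plain probe sets, 2967 with ACTB and 11 with 18S, and 5056 to 6180 without 1 array. The 29 related genes became 17 with ACTB and 0 with 18S (6 unadjusted), and 25 to 31 without 1 array.

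In the miR-30 arm the 1 call became 2 with array weights, 2 with trend and robust, 2 with the replicate block, and 0 with plain probe sets (which leave out IFT20), ACTB, 18S (3, 5 and 4 unadjusted) or an adjusted p under 0.01. It was 0 to 2 without 1 array. Over all genes, 733 calls became 1220 with array weights, 1419 with trend and robust and 589 with the replicate block. The all-gene calls were 475 with plain probe sets, 554 with ACTB and 56 with 18S. The 7 related genes became 4 with no filter, 12 with the 60th percentile filter, 2 with only the arrays compared, 14 with trend and robust, and 0 with 18S (12 unadjusted) or an adjusted p under 0.01, and 1 to 8 without 1 array.

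The 18 differences between arms became 10 with plain probe sets, 9 with ACTB and 0 with 18S (6 unadjusted). They were 14 to 18 without 1 array. Over all genes, 3872 such calls became 2833 with plain probe sets, 1717 with ACTB and 19 with 18S. TCTN2 turned to -0.26 with 18S. The 28 control calls became 3 with ACTB, where the 9044 of all genes became 1658, and 25 to 29 without 1 array. There IFT80 (0.57) and BBS7 (0.19) turned with ACTB, IFT57 (0.06) and MKKS (0.30) with averaged probe sets, and MKKS (1.04) with plain ones. The causes were not tested. Shares of all genes at an unadjusted p under 0.05 are not given for these settings.

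The main fit did not pair the arrays by replicate number. Deviations of same-numbered arrays correlated at 0.05, 0.10 and 0.07 in the hairpin arm and 0.118, 0.091 and 0.226 in the miR-30 arm. These values do not settle whether same-numbered arrays were handled together. With the number as a block, 29 of the 30 shBCL9 calls were kept (BBS5 was lost) and 29 were made.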

Other observations

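A pair of genes of the motile cilium axoneme, outside the members, had the largest absolute shBCL9 differences among the genes of the other cilium lists. BBS2 (-1.15) and BBS12 (-0.98), both members, lie between them. SPAG16, a central pair protein, was at 6.14, 6.32 and 5.97 in shBCL9 cells, against 7.28, 7.46 and 7.65 in shGFP cells, and at 7.82, 8.16 and 8.02 in miR-30 cells, against 7.98, 7.99 and 7.93 in cel-miR-67 cells. The log2 difference was -1.32 (SE 0.11, limma adjusted p = 1.2e-06). CFAP44, an axonemal protein of sperm flagella, was at 6.70, 6.46 and 6.33 in shBCL9 cells, against 7.44, 7.41 and 7.49 in shGFP cells, a difference of -0.94 (SE 0.09, limma adjusted p = 4.72e-06), and a further probe set differed by -0.98. Both genes' hairpin groups were apart. Of the 14 motile axoneme genes tested 5 fell and 3 rose in shBCL9 cells, and DNAI2, RSPH4A, RSPH9, HYDIN and 4 others were above the filter level on no array. CFAP53 and CAPS differed by -0.38 and -0.25, while 3 further CAPS probe sets differed by 0.07 to 0.21.

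MYB, a transcription factor of blood progenitors that also acts in multiciliated cells, rose in both arms, by 0.85 in shBCL9 cells and 0.71 in miR-30 cells (limma adjusted p = 1.06e-05 and 0.00117).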
